A study of Mus musculus with 4 samples.

Results

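The cells described here are testis cells in which no Gfra1 transcript was counted, compared between Plzf +/+ and Plzf lu/lu mice. They were chosen by a rule on the counts: 0 unique molecular identifiers (UMIs, one per captured transcript) of Gfra1, at least 3000 UMIs in the cell, fewer than 10 UMIs summed over the spermatid genes Prm1, Prm2, Tnp1, Tnp2, Oaz3 and Smcp, and fewer than 3 UMIs of Clu, which Sertoli cells express. Of 1249 cells sequenced, 330 met it. Plzf lu/lu mice carry the luxoid mutation of Plzf, listed in the tables as Zbtb16, and every mouse carried an Eomes-iCreERt2-tdTomato knock-in allele, named Eomes<tm1.1(icre/ERT2)Reb> in the strain label. Testes were taken at 4 wk, and tdTOMATO+ cells were sorted singly into the wells of 4 plates, so the reporter follows the Eomes locus and not Plzf. Plates 1 and 2 gave Plzf +/+ libraries, plate 3 a Plzf lu/lu library and plate 4 one of each genotype. The labels name no animals, so the spread between libraries may be technical, and except on plate 4 the plate and the genotype cannot be told apart.

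PLZF is a zinc finger transcriptional repressor that undifferentiated spermatogonia need to keep renewing, and mice that lack it lose their germ line with age. GFRA1 is the co-receptor through which spermatogonial stem cells (SSCs) and the shortest chains of their progeny sense GDNF from Sertoli cells. Its transcript falls as spermatogonia lengthen their chains and differentiate, and in single cells a transcript present in few copies can also go uncounted.

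The 330 Gfra1-negative cells came to 79 on plate 1, 53 on plate 2 and 62 on plate 4 for Plzf +/+, and to 127 on plate 3 and 9 on plate 4 for Plzf lu/lu. Summed, the wild-type cells held 528250, 360652 and 415733 UMIs and the mutant cells 879775 and 74260, with medians of 5304 to 7272 UMIs per cell. Most Plzf lu/lu counts are therefore those of plate 3, and the plate 4 library rests on 9 cells. Among all cells that met the depth and exclusion limits, Gfra1-negative cells made up 30.7%, 24.9% and 33.0% in Plzf +/+ and 56.4% and 45% in Plzf lu/lu libraries. The rule itself sets these shares, so they are given without a test. Mitochondrial genes held 4.54% to 5.99% of UMIs. At the edge of the rule, the shallowest cell kept had 3006 UMIs and the deepest cell left out for depth had 2976. Between 7 and 9 spermatid UMIs were counted in 4 Plzf +/+ and 3 Plzf lu/lu cells that were kept, and 10 to 12 in 7 and 1 cells that were not. Exactly 2 Clu UMIs were counted in 1 Plzf +/+ and 4 Plzf lu/lu cells that were kept, and 3 in 3 and 1 cells that were not. A single Gfra1 UMI put 139 Plzf +/+ and 41 Plzf lu/lu cells outside. Libraries used the same well barcodes on different plates, and 78 of the 234 barcodes of these cells occurred in more than one library, while no barcode was shared between the genotypes of plate 4.

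Germ cell transcripts were counted in most of the cells. Dazl, an RNA-binding protein of germ cells, had a UMI in 96.9% of Plzf +/+ (95% exact Clopper-Pearson interval 93.4 to 98.9%) and 100% of Plzf lu/lu cells (97.3 to 100%), and Ddx4, a germ cell helicase, in 87.6% and 86.0%. These intervals cover counting error only. Kit or Stra8, genes of differentiating spermatogonia, had a UMI in 39.2%, 35.8% and 25.8% of cells in the Plzf +/+ libraries and in 33.1% and 44.4% in the Plzf lu/lu libraries, so the genotypes overlapped. Of other cell types, Leydig cell markers were at 0 in every library. Macrophage and erythroid markers summed to at most 1 UMI, T and NK cell markers to at most 4, peritubular myoid markers to at most 13 and endothelial markers to at most 14. The endothelial sums were 4.06, 11.2 and 7.79 CPM (counts per 1e6 UMIs of TMM library size) in Plzf +/+ and 17.5 and 28.8 CPM in Plzf lu/lu. These do not overlap, but the 28.8 CPM of plate 4 is 2 UMIs, and their part in the results was not tested. In the plate 4 Plzf lu/lu library 3 UMIs make 43.2 CPM, so any level there of 43.2 CPM or less rests on 3 UMIs or fewer. Sertoli markers differed as well. Without Ctsl, which was abundant in every library, 10 Sertoli markers summed to 44.7, 39.2 and 62.3 CPM in Plzf +/+ and 123 and 417 CPM in Plzf lu/lu, and at least 1 such UMI was seen in 17.7%, 13.2% and 24.2% against 39.4% and 66.7% of cells. With Ctsl, which had a log2 fold change of -0.32, the 11 markers summed to 378, 370 and 421 CPM against 404 and 662 CPM, and the plate 3 Plzf lu/lu library lay inside the Plzf +/+ range. Between 6 and 8 of the 10 markers were detected per library. Their part in the results was not tested, and without the cells that held such a UMI 83 genes rose and 82 fell, 149 of them among the 381 calls given below.

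Zbtb16 itself was counted at 85.3, 89.6 and 67.5 CPM in the Plzf +/+ libraries and at 17.5 and 0 CPM in the Plzf lu/lu libraries. Both mutant libraries lay below all wild-type libraries, and 39.2% of Plzf +/+ but 8.09% of Plzf lu/lu cells had a UMI of it. The log2 fold change (Plzf lu/lu over Plzf +/+, throughout) was -2.33 ± 0.41 (SE; edgeR quasi-likelihood, adjusted p = 4.88e-06). Without the plate 3 Plzf lu/lu library, when the mutant cells left hold 0 UMIs and a fitted fold is no bound, the adjusted p was 0.112, and over the 17 alternatives that gave one it ran from 4.46e-06 to 0.112. DESeq2 gave no adjusted p for it. The tags come from transcript 3′ ends and do not read the luxoid mutation, so this is a level and not a check of the genotype.

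Across genes, 7694 passed the filter on low counts and were tested. Of these 217 rose in Plzf lu/lu cells (2.82%) and 164 fell (2.13%), at a Benjamini-Hochberg adjusted p under 0.05 in edgeR. In 192 of the genes that rose and 148 of those that fell, neither Plzf lu/lu library overlapped any Plzf +/+ library. Over all genes tested, 15.6% lay entirely higher and 17.4% entirely lower in that way, and the median log2 fold change was -0.02. DESeq2 called far fewer, 8 higher and 7 lower, all of them also called by edgeR, and gave no adjusted p for 158 of the 381 genes that edgeR called. Leaving out the plate 3 Plzf lu/lu library left 11 and 8 calls, 12 of them among the 381 above. Of 70 called genes followed one by one, 60 had a value there and 7 were still called, so a call below without that value may rest on plate 3. With the spermatid and Clu exclusions not applied, 24 of the 70 were still called and 46 were not, Syt12, H2-Q2, Ppic, Itpka, Ktn1, Upp1, Ddit4, Cenpe, Mt2 and Fth1 among them, and all 70 kept their direction.

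Malat1, a nuclear long noncoding RNA, was at 2140, 1738 and 2318 CPM in Plzf +/+ and at 470 and 518 CPM in Plzf lu/lu. It fell by 2.09 ± 0.16 on the log2 scale (edgeR adjusted p = 1.17e-36, DESeq2 adjusted p = 1.77e-18). After thinning each cell to 3000 UMIs its median was 4, 3 and 5 UMIs per cell in Plzf +/+ and 1 and 1 in Plzf lu/lu libraries, and 6.33% to 9.43% against 40.2% and 44.4% of cells had none. Rps15a-ps8, annotated as a processed copy of a ribosomal protein gene, went the other way, from 126, 120 and 174 CPM to 1421 and 1352 CPM. Its log2 fold change was 3.32 ± 0.17 (edgeR adjusted p = 3.58e-77, DESeq2 adjusted p = 1.56e-37), and 28.9% of Plzf +/+ but 96.3% of Plzf lu/lu cells had a UMI at 3000 UMIs per cell. Reads of such a pseudogene can be split with its parent gene, so its level is uncertain.

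**Figure D1:**
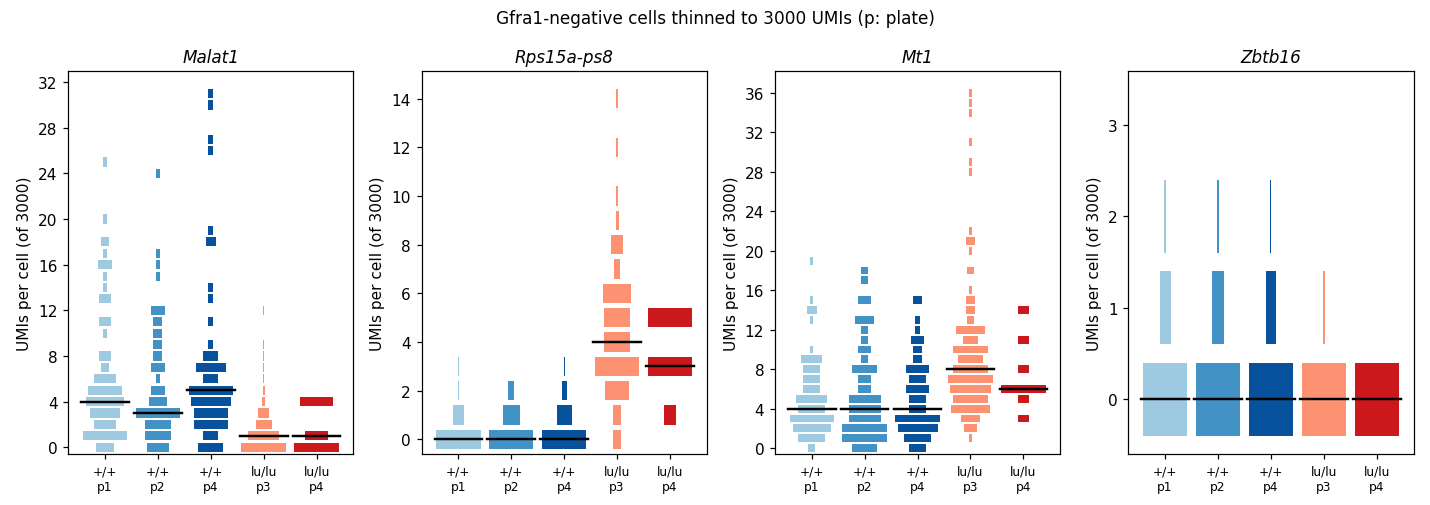
UMIs per Gfra1-negative cell (vertical axis) of Malat1, Rps15a-ps8, Mt1 and Zbtb16 after thinning each cell to 3000 UMIs, in the 3 Plzf +/+ (blue) and 2 Plzf lu/lu (red) libraries. The width of each bar is the number of cells with that count relative to the commonest count of the library, and black lines are medians. Malat1 medians are 3 to 5 in Plzf +/+ and 1 in Plzf lu/lu libraries, and Mt1 medians are 4 against 8 and 6.

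Bola2, which handles iron-sulfur clusters together with glutaredoxins, was at 426, 358 and 400 CPM in Plzf +/+ and 740 and 921 CPM in Plzf lu/lu (log2 fold change 1.01 ± 0.17, edgeR adjusted p = 7.06e-07). Mdn1, an AAA ATPase of ribosome assembly, was at 690, 753 and 810 CPM against 369 and 374 CPM and fell by 1.02 ± 0.18 (edgeR adjusted p = 3.63e-06). Malat1, Rps15a-ps8, Bola2 and Mdn1 were the 4 genes called in the same direction under all 17 edgeR alternatives, single libraries left out included. Of the 17, 1 left out plate 4 Plzf +/+ cells outside their labelled wells. No Gfra1-negative cell lay there, so it repeated the main fit. DESeq2 called these 4 genes as well. Bola2 and Mdn1 were chosen for naming after their values were seen, as were Ankrd12, Pcm1, Abca1 and Son, which DESeq2 also called. Ankrd12 fell by 1.22, Pcm1, a protein of centriolar satellites, by 1.08, Abca1, a cholesterol exporter, by 1.36 and Son, a splicing cofactor, by 0.92 on the log2 scale.

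Mt1, Mt2 and Fth1 were named after their values were seen. The metallothioneins Mt1 and Mt2, small proteins that bind zinc and copper, had 1718, 1671 and 1799 CPM (Mt1) and 1480, 1330 and 1568 CPM (Mt2) in Plzf +/+ libraries. In Plzf lu/lu libraries Mt1 was at 3212 and 2633 CPM and Mt2 at 2677 and 2187 CPM, with no overlap in either gene. The log2 fold changes were 0.77 ± 0.13 for Mt1 (edgeR adjusted p = 6.00e-07, DESeq2 0.00642) and 0.76 ± 0.13 for Mt2 (edgeR adjusted p = 2.46e-06, DESeq2 0.0183). Fth1, the heavy chain of the iron store ferritin, was at 1206, 1153 and 1402 CPM against 2275 and 1856 CPM (log2 fold change 0.74, edgeR adjusted p = 7.72e-06). Without the plate 3 Plzf lu/lu library the edgeR adjusted p was 0.0771 for Mt1, 0.134 for Mt2 and 0.197 for Fth1.

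The starts of both metallothionein genes are shown because metal-response elements lie near them. Each sequence runs from 250 bases before to 50 bases after the start of the RefSeq transcript in the promoter table (GRCm38.p6), 5′ to 3′ on the gene's strand, with the letters TGCACNC or TGCGCNC, the core of that element, in capitals on either strand.
Mt1, chr8:94178839-94179138, plus strand: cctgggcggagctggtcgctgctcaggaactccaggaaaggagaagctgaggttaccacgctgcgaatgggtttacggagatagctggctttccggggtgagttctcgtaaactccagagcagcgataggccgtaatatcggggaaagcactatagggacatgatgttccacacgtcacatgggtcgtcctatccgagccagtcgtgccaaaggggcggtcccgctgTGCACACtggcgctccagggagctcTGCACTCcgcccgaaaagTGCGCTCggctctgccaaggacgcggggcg
Mt2, chr8:94172368-94172667, plus strand: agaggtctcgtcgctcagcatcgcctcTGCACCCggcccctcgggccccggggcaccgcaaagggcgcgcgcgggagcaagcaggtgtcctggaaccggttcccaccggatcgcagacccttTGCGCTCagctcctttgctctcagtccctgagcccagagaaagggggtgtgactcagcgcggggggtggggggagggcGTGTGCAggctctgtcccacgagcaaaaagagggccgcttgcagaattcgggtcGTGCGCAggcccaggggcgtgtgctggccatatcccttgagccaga
The RefSeq gene as a whole begins at that start for Mt2 and earlier, at 94178883, for Mt1. Mt1 held 3 such matches and Mt2 held 4. Of 32851 RefSeq promoters of this length, 1.97% held at least 3, 0.517% at least 4 and 25.7% at least 1. A match is a string of letters and says nothing of what binds there.

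Ifitm2, an interferon-induced membrane protein, was at 6.09, 5.60 and 5.19 CPM in Plzf +/+ and at 93.5 and 71.9 CPM in Plzf lu/lu libraries. Its log2 fold change was 3.92 ± 0.47 (edgeR adjusted p = 2.4e-13), and at 3000 UMIs per cell it was seen in 1.55% of Plzf +/+ and 21.3% of Plzf lu/lu cells. Of the list of MHC class I and immunoproteasome genes, 3 of 6 members tested rose and 0 fell, where 2.82% of all genes rose and 2.13% fell. The others were H2-D1, a class I heavy chain (log2 fold change 1.92 ± 0.63, adjusted p = 0.047), and the inducible proteasome subunit Psmb10 (0.76 ± 0.21, adjusted p = 0.0098). Without the plate 3 mutant library Psmb10 was at 0.27 (adjusted p = 0.869), and it lost its call in 8 of 18 alternatives. B2m, the light chain that every class I molecule needs, was at 71.2 ± 13.3 CPM (SD, n = 3) against 64.3 ± 9.58 CPM (SD, n = 2), with a log2 fold change of -0.05 (adjusted p = 0.95). H2-Q2, a further class I gene outside the list, was at 2.90 ± 3.06 against 35.6 ± 9.64 CPM (log2 fold change 3.53, adjusted p = 0.00044). The H2 genes are near copies of one another and differ between strains, so their counts are uncertain. H2-D1 lost its call when either Plzf lu/lu library was left out (adjusted p = 0.243 without plate 3, 0.205 without plate 4).

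The tabulated promoter of Ifitm2 holds one match to the interferon-stimulated response element, read as GAAA, any 2 bases and GAAA, which 3.44% of the promoters hold on either strand.
Ifitm2, chr7:140955912-140956211, minus strand, match in capitals: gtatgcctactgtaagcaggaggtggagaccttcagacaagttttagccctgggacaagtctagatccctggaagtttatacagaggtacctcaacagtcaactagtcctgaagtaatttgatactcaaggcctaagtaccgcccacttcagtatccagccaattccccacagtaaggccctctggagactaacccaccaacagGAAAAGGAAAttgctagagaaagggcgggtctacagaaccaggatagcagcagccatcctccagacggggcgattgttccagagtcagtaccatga
The match lies 46 to 37 bases before the tabulated transcript start, which is inside the RefSeq gene, annotated from 140954837 to 140959686.

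Coro1a, an actin-binding protein of leukocytes, was at 8.12, 14 and 18.2 CPM in Plzf +/+ and 79.8 and 101 CPM in Plzf lu/lu (log2 fold change 2.65 ± 0.41, adjusted p = 1.2e-07). Ptprc, which marks all leukocytes, belongs to the T and NK list, whose 8 markers together stayed at 4 UMIs or fewer per library. Krt18, a keratin of simple epithelia and of immature Sertoli cells, was at 6.94 ± 4.36 CPM (SD, n = 3) against 61.5 ± 14.7 CPM (SD, n = 2), a log2 fold change of 3.00. Ppic, a cyclophilin, was at 14.2, 11.2 and 0 CPM against 68.6 and 43.2 CPM, a log2 fold change of 2.83. Leaving out all cells that held a Sertoli marker UMI removed 50 of 127 plate 3 and 6 of 9 plate 4 Plzf lu/lu cells. The Plzf lu/lu values left are mostly those of plate 3. Krt18 was then higher by 2.89 (edgeR adjusted p = 0.0016), Ppic by 3.04 (adjusted p = 9.45e-05) and Ifitm2 by 4.00 (adjusted p = 4.08e-07). Of the 53 called genes followed one by one that had a value in that setting, 11 lost their call, among them Egr2 and Ccnd1 (below), Pkm (log2 fold change 0.62 there, 0.69 with all cells) and Chrna4 (-1.93 and -2.44). Defb19, a beta-defensin on the Sertoli list, rose by 1.71 (adjusted p = 0.021), and without the plate 4 Plzf lu/lu library its adjusted p was 0.173.

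Syt12, a synaptotagmin, had 0 UMIs in all 3 Plzf +/+ libraries and 23 and 4 UMIs in Plzf lu/lu, in 21 of 136 cells. Against a floor of 3 UMIs over the Plzf +/+ group it was 12.8-fold higher. This leaves out counting error in the Plzf lu/lu UMIs and the spread between libraries. Gm12751, a pseudogene, had 1, 0 and 1 UMIs against 32 and 4, a ratio of 25.5 with a 95% counting interval of 6.57 to 219. The remaining genes of the 15 with the largest fitted rises were Cyfip2, a subunit of the WAVE actin regulator, Itpka, an inositol trisphosphate kinase, Shisa5, the serine protease Prss36, the imprinted gene Phlda2 and the unnamed transcripts Gm17535 and Gm26983. Their log2 fold changes were between 2.17 (Phlda2) and 2.92 (Cyfip2), and their Plzf lu/lu levels between 28.8 and 98.5 CPM in each library. All were scarce in Plzf +/+ cells, at 22.3 CPM or less. Shisa5 lost its call in 4 of 12 alternatives, the plate 4 Plzf lu/lu library left out among them. Its log2 fold change ran there from 1.74 to 4.35. Without the plate 3 Plzf lu/lu library only 5 of these 15 genes passed the filter on low counts. Rps15a-ps8 was still called (log2 fold change 3.22), and Coro1a (2.85, adjusted p = 0.164), Prss36, Gm26983 and Phlda2 were not.

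**Figure D2:**
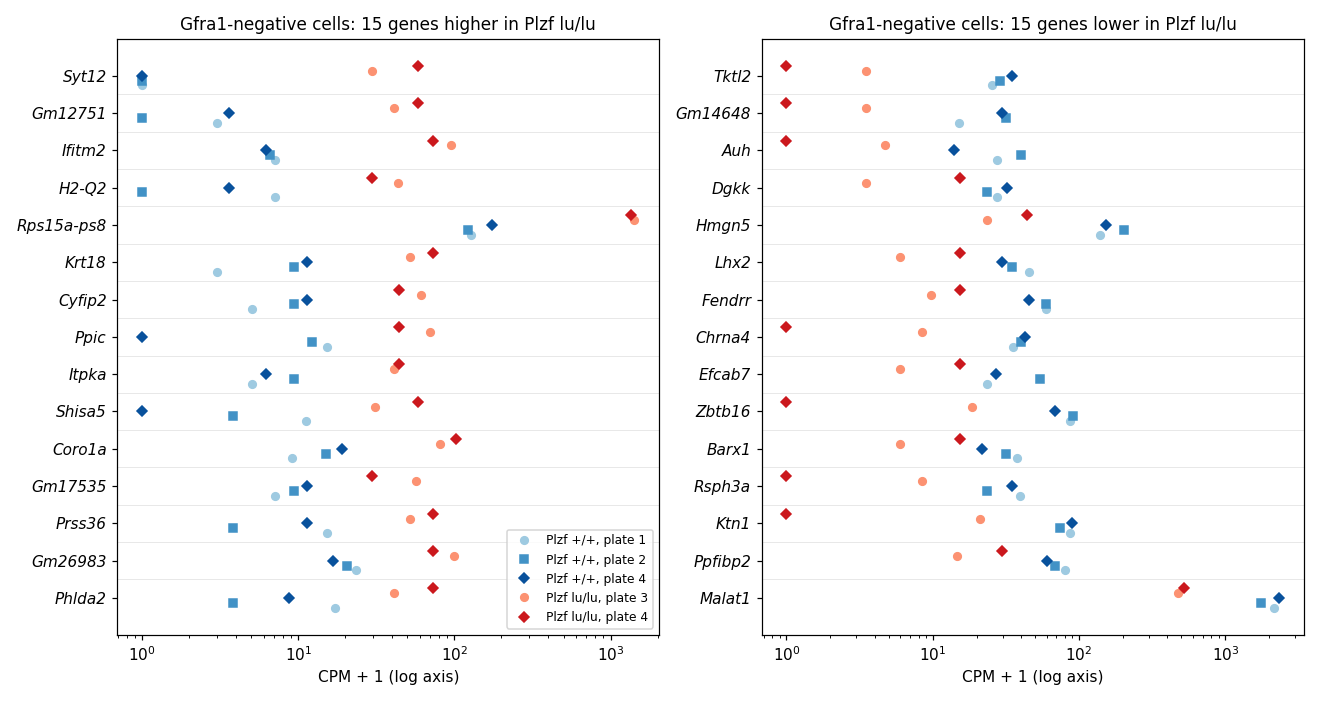
Level of the 15 genes with the largest fitted rise (left) and the 15 with the largest fitted fall (right) in Gfra1-negative cells, as CPM + 1 on a log axis, 1 point per library (3 Plzf +/+ in blue, 2 Plzf lu/lu in red). The red points lie beyond all blue points in each row, which the rule for naming genes required, and points at 1 are libraries with no UMI.

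Hmgn5 was among the genes with the largest fitted falls, beside Malat1 and Zbtb16. Hmgn5, a nucleosome-binding protein, was at 138, 202 and 151 CPM in Plzf +/+ and 22.5 and 43.2 CPM in Plzf lu/lu (log2 fold change -2.71 ± 0.32, edgeR adjusted p = 1.77e-13, DESeq2 0.000419). Lhx2, a LIM homeodomain factor, was at 44.7, 33.6 and 28.6 CPM against 4.99 and 14.4 CPM and fell by 2.58 (adjusted p = 0.0055). Barx1, another homeodomain factor, was at 36.5, 30.8 and 20.8 CPM against 4.99 and 14.4 CPM and fell by 2.29 (adjusted p = 0.042). Fendrr, a long noncoding RNA, was at 53.9 ± 8.48 CPM (SD, n = 3) against 11.6 ± 4.00 CPM (SD, n = 2) and fell by 2.51 (adjusted p = 0.00012). On plate 4 the Plzf lu/lu levels were 3 UMIs for Hmgn5 and 1 UMI each for Lhx2, Barx1 and Fendrr. On these few counts each gene lay lower in both mutant libraries than in any wild-type library. Each lost its call without the plate 3 Plzf lu/lu library. The log2 fold change there was -1.95 for Hmgn5, -1.94 for Fendrr, -1.36 for Lhx2 and -1.08 for Barx1.

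Ktn1, a kinesin receptor of the endoplasmic reticulum, was at 85.3, 72.8 and 88.3 CPM against 20.0 and 0 CPM and fell by 2.17 (adjusted p = 1.2e-05). Chrna4, a subunit of the neuronal acetylcholine receptor, was at 34.5, 39.2 and 41.5 CPM against 7.48 and 0 CPM and fell by 2.44 (adjusted p = 0.0045). Ppfibp2, a liprin, fell by 2.17, from 79.2, 67.2 and 59.7 CPM to 13.7 and 28.8 CPM. Efcab7 fell by 2.43 and Rsph3a, a radial spoke protein of cilia, by 2.19. Without the plate 3 Plzf lu/lu library Ppfibp2 was at -1.31 and Efcab7 at -1.22. The call was lost in 4 of 10 alternatives for Efcab7 and in 4 of 11 for Rsph3a. A further 4 genes had 2 or 3 UMIs in all Plzf lu/lu cells. Tktl2, a transketolase-like gene, had 12, 10 and 13 UMIs against 2 and 0, a ratio of 0.081 (95% counting interval 0.00944 to 0.315). The ratio was 0.0978 for the pseudogene Gm14648, 0.133 for Auh, an RNA-binding enoyl-CoA hydratase, and 0.129 for Dgkk, a diacylglycerol kinase. The call was lost in 5 of 11 alternatives for Gm14648, in 6 of 10 for Auh and in 6 of 11 for Dgkk, which was at -0.93 (adjusted p = 0.857) without the plate 3 mutant library. These intervals hold for counting error and not for the spread between libraries.

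Of 10 identity genes of SSCs and progenitors, 4 passed the filter on low counts and Zbtb16 alone of these was called. The list holds genes the study itself examined in these cells and is not independent evidence. Bmi1, a Polycomb protein, was at 97.9 ± 9.66 CPM (SD, n = 3) against 103 ± 23.6 CPM (SD, n = 2). Id4, an inhibitor of differentiation, was at 34.5, 22.4 and 51.9 CPM against 72.3 and 57.5 CPM, higher by 0.94 ± 0.35 with an adjusted p of 0.091. Lin28a, an RNA-binding protein, was at 48.7, 44.8 and 130 CPM against 59.9 and 86.3 CPM, so the genotypes overlapped. Neurog3, a factor of progenitors, had 8, 10 and 7 UMIs against 3 and 0 (ratio 0.17, 95% counting interval 0.0329 to 0.557). Pdx1 had 3, 3 and 5 UMIs against 0 and 0. On a floor of 3 UMIs over the Plzf lu/lu group it was 2.59-fold lower, without counting error in the Plzf +/+ UMIs. Its 0 of 136 cells allows a share of cells with a UMI of up to 2.21% (3 counts of the total). That is no limit on the cells that express it. Eomes had 3, 1 and 2 UMIs against 0 and 0, although its locus drives the reporter used for sorting. T had 8 and 2 UMIs, Nanos2 had 15 and 10, and Pax7 had 1 and 2 UMIs in all Plzf +/+ and all Plzf lu/lu cells. None of these 6 passed the filter, so they have no test.

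Of 10 GDNF receptor and response genes tested 1 fell and 0 rose (2.13% and 2.82% of all genes), with a median log2 fold change of -0.67 against -0.02 over all genes. The one that fell was Egr2, a zinc finger factor induced by growth factors, at 91.4, 101 and 96.1 CPM against 49.9 and 28.8 CPM (log2 fold change -1.01 ± 0.31, adjusted p = 0.032). Egr2 lost its call in 12 of 17 alternatives, among them each mutant library left out, and was at -0.60 (adjusted p = 0.497) without the cells that held a Sertoli marker UMI. Egr1, its relative, was at 120 ± 27.4 CPM (SD, n = 3) against 145 ± 1.47 CPM (SD, n = 2), and Ret, the signalling partner of GFRA1, at 73.0 ± 27.6 against 59.0 ± 18.2 CPM. Neither passed the threshold. Of 10 progenitor genes 2 fell, against 2.13% of all genes. Upp1, uridine phosphorylase, was at 106, 109 and 85.7 CPM against 33.7 and 0 CPM (log2 fold change -1.72, adjusted p = 6.9e-05), and Ddit4, which restrains mTORC1, at 83.2, 72.8 and 59.7 CPM against 22.5 and 14.4 CPM (-1.73, adjusted p = 0.00096). Sohlh1, which drives differentiation, Sall4, a partner of PLZF, and Foxo1 had log2 fold changes of -0.14, -0.32 and -0.65 and did not pass. Of 14 FOXO and mTORC1 regulators 1 rose and 1 fell (2.82% and 2.13% of all genes). Ddit4 fell and Eif4ebp1, a brake on translation that mTORC1 releases, rose by 0.70 (adjusted p = 0.019). Eif4ebp1 was at 309 CPM in the plate 3 but 86.3 CPM in the plate 4 Plzf lu/lu library, below its 130 to 197 CPM in Plzf +/+.

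Among 10 genes of differentiating spermatogonia 1 rose and 1 fell, against 2.82% and 2.13% of all genes. Crabp1, which binds retinoic acid, was at 177, 188 and 179 CPM against 385 and 201 CPM (log2 fold change 0.92 ± 0.19, adjusted p = 0.00019). Ccnd2, a D-type cyclin, was at 199, 224 and 223 CPM against 148 and 14.4 CPM (-0.74, adjusted p = 0.025). Without plate 3 Crabp1 was higher by 0.10 (adjusted p = 0.951), and without the plate 4 Plzf lu/lu library Ccnd2 was at -0.53 (adjusted p = 0.156), with its call lost in 13 of 18 alternatives and its log2 fold change between -3.92 and -0.34. Stra8 was at 264 ± 93.8 CPM (SD, n = 3) against 345 ± 60.7 CPM (SD, n = 2) and Dmrt1 at 391 ± 32.8 against 354 ± 196 CPM, neither past the threshold. Of 14 meiotic prophase genes 1 rose (2.82% of all genes did), the axis protein Sycp3 (0.60, adjusted p = 0.04), with a list median of 0.21. Sycp3 lost its call in 13 of 18 alternatives, among them each mutant library left out (adjusted p = 0.348 without plate 3, 0.0986 without plate 4). Sycp1, Smc1b and Tex15, the most abundant of that list, had log2 fold changes of -0.19, 0.07 and 0.18. Of 12 germ cell genes edgeR and DESeq2 called 0, and 3 had an unadjusted p under 0.05 in edgeR.

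Of 26 DNA replication genes 22 had a log2 fold change above 0, with a median of 0.26, but 0 were called by edgeR or DESeq2 and 7 had an unadjusted edgeR p under 0.05. Their summed level was 3876, 4039 and 3850 CPM in Plzf +/+ but 4735 CPM on plate 3 and 3338 CPM on plate 4 in Plzf lu/lu, so the mutant libraries lay on opposite sides. Of 28 genes of G2 and mitosis 5 were above 0, with a median of -0.38, and 2 fell, against 2.13% of all genes. Their summed level was 5362, 4294 and 6096 CPM against 3734 CPM on plate 3 and 5539 CPM on plate 4, the latter inside the Plzf +/+ range. The genes that fell were the kinetochore proteins Cenpe, at 493, 386 and 582 CPM against 217 and 388 CPM (-0.95, adjusted p = 0.00012), and Cenpf, at 901, 616 and 984 CPM against 448 and 590 CPM (-0.77, adjusted p = 0.00053). Of 14 G1 cyclins, kinases and inhibitors 2 fell, Ccnd2 and Ccnd1, against 2.13% of all genes. Ccnd1, a further D-type cyclin, was at 108, 72.8 and 112 CPM against 37.4 and 0 CPM (-1.54, adjusted p = 0.00038). Cdk4, the kinase both cyclins bind, was at 417 ± 46.1 CPM (SD, n = 3) against 459 ± 1.84 CPM (SD, n = 2). Without the plate 3 Plzf lu/lu library the adjusted p was 0.0591 for Ccnd1 (0.13 without the cells that held a Sertoli marker UMI), 0.66 for Cenpe (log2 fold change -0.38) and 0.375 for Cenpf (-0.56).

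All 8 glutathione transferases tested had a log2 fold change above 0 (median 0.59), and 3 rose, against 2.82% of all genes. Gsta4, which clears lipid aldehydes, was at 89.3, 104 and 127 CPM against 281 and 259 CPM (1.38 ± 0.21, edgeR adjusted p = 9.28e-08, DESeq2 0.0256), and Gsto1 was at 83.2, 89.6 and 88.3 CPM against 188 and 173 CPM (1.09, adjusted p = 0.00039). Gstm5 rose by 0.56 (adjusted p = 0.048), but its 259 CPM in the plate 4 Plzf lu/lu library lay inside the Plzf +/+ range of 230 to 301 CPM. Without the plate 3 Plzf lu/lu library Gsta4 was at 1.23, Gsto1 at 0.94 and Gstm5 at -0.08, each without its call. The call was lost in 4 of 18 alternatives for Gsto1 and in 11 of 18 for Gstm5, which turned direction in 1 more. Of 13 glycolytic genes 2 rose, Aldoa (0.86, adjusted p = 0.00047) and Pkm (0.69, adjusted p = 0.0051), against 2.82% of all genes and with a list median of 0.04, and Gpi1 was at 505 ± 24.9 CPM (SD, n = 3) against 468 ± 133 CPM (SD, n = 2). Without the plate 3 Plzf lu/lu library Aldoa was at 0.60 (adjusted p = 0.53) and Pkm at 0.17 (adjusted p = 0.885). Of 11 imprinted genes 2 rose (2.82% of all genes did), Snrpn (2.12, adjusted p = 0.00041) and Dlk1 (1.01, adjusted p = 0.029). For Dlk1 the plate 4 Plzf lu/lu library, at 43.2 CPM, lay within the Plzf +/+ range of 33.8 to 61.6 CPM.

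Of 12 corepressors and partners of PLZF tested, 0 were called by edgeR or DESeq2, 2 had an unadjusted edgeR p under 0.05 and the median was -0.14. Sin3b was at 541 ± 29.0 CPM (SD, n = 3) against 592 ± 139 CPM (SD, n = 2) and Hdac2 at 267 ± 21.5 against 201 ± 20.3 CPM. Ncor1, a scaffold of histone deacetylase 3, was at 240 ± 9.19 against 232 ± 140 CPM with a log2 fold change of -0.53 (adjusted p = 0.15). In 8 adhesion and surface genes edgeR called 0 (3 with an unadjusted p under 0.05) and in 5 DNA methylation genes 0 (2 with an unadjusted p under 0.05), and DESeq2 called 0 in both. Only 2 spermatid genes outside the rule, Crisp2 and Odf2, were abundant enough to test, and neither passed (edgeR, 0 with an unadjusted p under 0.05, 0 in DESeq2).

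**Figure D3:**
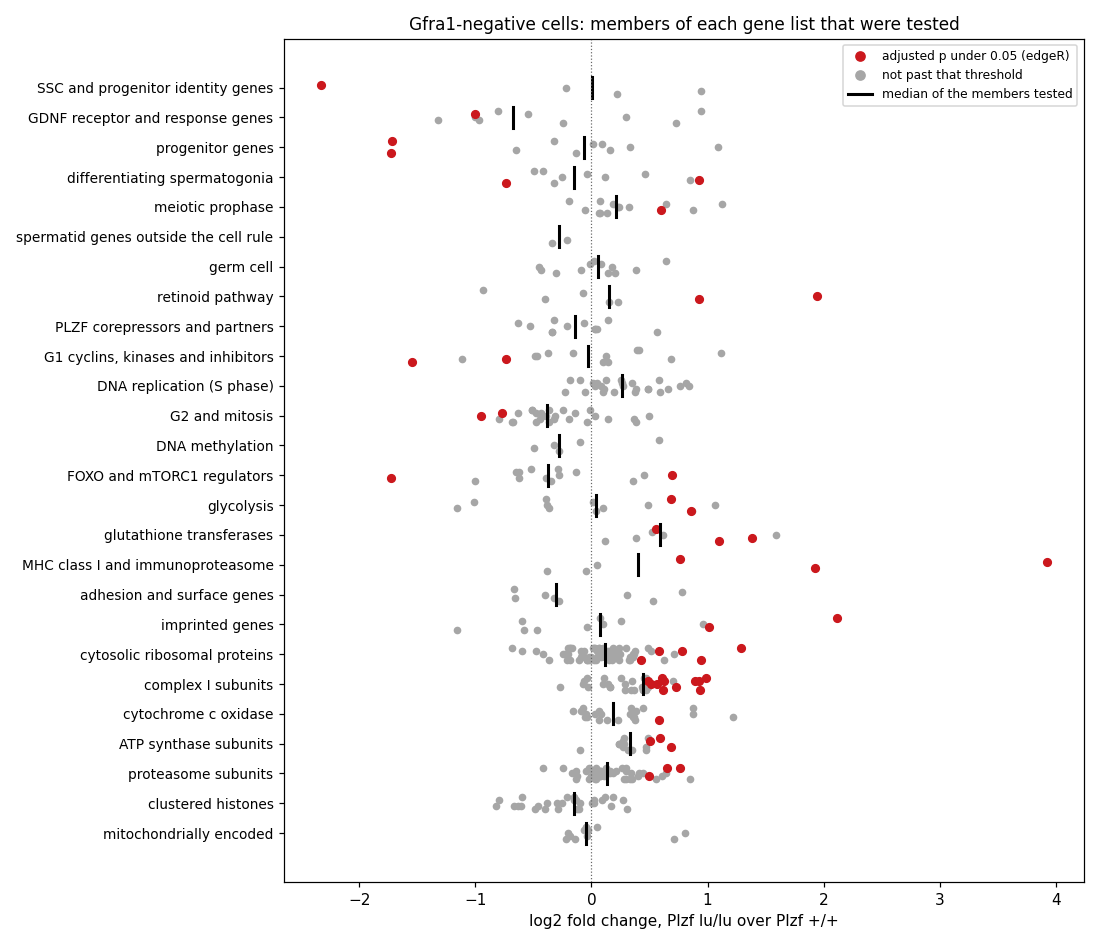
Log2 fold change (Plzf lu/lu over Plzf +/+) of each gene list's members that were tested in Gfra1-negative cells, 1 point per gene, red where the edgeR adjusted p was under 0.05, with a black bar at the list median. Medians run from -0.67 (GDNF receptor and response genes) to 0.59 (glutathione transferases).

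Of 37 genes of complex I, the entry of the respiratory chain, taken by the symbol Nduf without assembly factors, 11 rose and 0 fell (2.82% and 2.13% of all genes), and 32 were above 0 with a median of 0.44. DESeq2 called 0 of them, and without the plate 3 Plzf lu/lu library edgeR called 0 of the 11. They included Ndufc1 (0.99), Ndufa1 (0.94) and Ndufb4 (0.89). Of 16 ATP synthase subunits 3 rose and of 24 cytochrome c oxidase genes 1 did, against 2.82% of all genes, and none fell. The 11 transcripts of the mitochondrial genome that were tested had a median of -0.05, and edgeR called 0 of them (1 with an unadjusted p under 0.05, 0 in DESeq2). Of 47 proteasome genes 3 rose and 0 fell, against 2.82% and 2.13% of all genes. Of 29 clustered histone genes edgeR and DESeq2 called 0, and 2 had an unadjusted edgeR p under 0.05. Of 82 ribosomal protein genes 5 rose and 0 fell, against the same shares, among them Rpl39 (1.29 ± 0.18, adjusted p = 4.65e-10) and Rps4x (0.94 ± 0.17, adjusted p = 7.72e-06). These families were put together after the values were seen, so their counts are a description. The counts were not set against genes of like genomic span, the distance from gene start to gene end.

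Rises and falls went with the genomic span of the gene. The 7122 genes with a matched RefSeq symbol (92.6% of those tested) were divided into 5 equal groups by the distance from gene start to gene end. The shortest group, up to 6616 bases, had a median log2 fold change of 0.17, with 6.46% of its genes called higher and 0.912% lower. The longest group, from 62409 bases, had a median of -0.25, with 0.702% called higher and 6.46% lower. Both Plzf lu/lu libraries lay lowest in the longest group, at -0.23 and -0.24 against the mean of the Plzf +/+ libraries. Single Plzf +/+ libraries lay there between -0.06 and 0.07 of the others. In the shortest group the Plzf lu/lu libraries were at 0.20 (plate 3) and 0.073 (plate 4). The latter lay inside the -0.066 to 0.077 of single Plzf +/+ libraries, so the rise of short genes was seen on plate 3 only. On plate 4 alone, where both genotypes shared a plate, the longest group was at -0.29 and the shortest at 0.04. The genes that rose had a median span of 7546 bases and those that fell 86097 bases, against 22332 bases over all. Gfra1-positive cells of the same libraries ran the same way, with medians of 0.19 in the shortest and -0.23 in the longest group. With this trend taken out of each library 166 genes rose and 113 fell, 226 of them among the 381, and Malat1 was at -2.22, Zbtb16 at -2.05 (adjusted p = 0.00012) and Mt1 at 0.65 (adjusted p = 8.18e-06). The part of this pattern in the single genes was otherwise not tested.

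**Figure D4:**
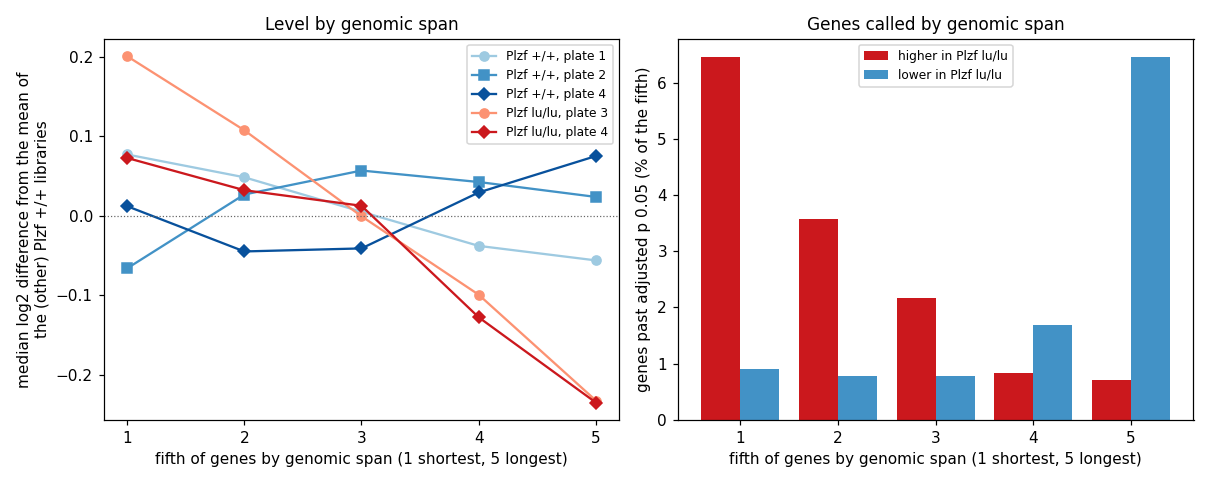
Left, median log2 difference of each library from the mean of the Plzf +/+ libraries (for a Plzf +/+ library, from the other two), by group of genes in genomic span. Right, percent of genes in each group called higher (red) or lower (blue) in Plzf lu/lu cells. Both Plzf lu/lu lines fall to -0.23 and -0.24 in the longest group. In the shortest group the plate 4 Plzf lu/lu library, at 0.073, lies inside the Plzf +/+ range. Calls change from 6.46% higher in the shortest to 6.46% lower in the longest.

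Around Plzf itself, 10 of the 88 genes tested within 10 Mb of the start of Zbtb16 (chromosome 9, 48651797 to 48836225, GRCm38.p6) were called, or 11.4%, against 4.95% over all genes. These 10 include Zbtb16 itself, and on the X chromosome 8.15% of genes were called. Crabp1, Fdx1, Cox5a, Hspa8, Nptn, Snx33 and Timm8b rose, and Zbtb16, Ddx6 and Scaper fell. Hspa8 lost its call in 12 of 18 alternatives. Without the plate 3 Plzf lu/lu library its log2 fold change was 0.16 and that of Crabp1 was 0.10. Fdx1, an electron carrier for sterol hydroxylation, was at 56.8, 64.4 and 75.3 CPM against 148 and 259 CPM (1.36 ± 0.26, adjusted p = 3.07e-05). Mice homozygous for a mutation also share the linked stretch of the chromosome on which it arose, and for such genes this and the mutation cannot be told apart.

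Whether the genotype difference differs between Gfra1-negative and Gfra1-positive cells was tested as an interaction. The 573 Gfra1-positive cells came from the same 5 libraries under the same lower depth limit and exclusions. Their median depth was 6299, 6889.5 and 6738 UMIs in Plzf +/+ and 9144 and 11438 UMIs in Plzf lu/lu. In Gfra1-negative cells it was 5581, 6262 and 6096.5 against 5304 and 7272 UMIs. Depth thus differed more between the 2 kinds of cells in Plzf lu/lu. Of 10435 genes 1 was called (0.00958%), Sdc4, a syndecan that carries heparan sulfate and helps cells bind growth factors and matrix. In Gfra1-negative cells Sdc4 was at 439, 462 and 465 CPM in Plzf +/+ and 513 and 417 CPM in Plzf lu/lu, a log2 fold change of 0.10 ± 0.17. In Gfra1-positive cells it was at 330, 355 and 437 CPM against 763 and 910 CPM, a log2 fold change of 1.13 ± 0.15. The difference was -1.002 ± 0.18 (edgeR adjusted p = 0.0016). With each cell thinned to 3000 UMIs it was -0.81 and not called (edgeR adjusted p = 0.455). Next came Egr4, an early growth response factor named after its values were seen, with 0.85 in Gfra1-negative and 2.20 in Gfra1-positive cells and an adjusted p of 0.0528 for the difference. No other gene was called. Malat1 fell by 2.09 in Gfra1-negative and by 1.51 in Gfra1-positive cells (adjusted p of the difference 0.113, past the threshold when cells down to 2000 UMIs were used), Rps15a-ps8 rose by 3.32 and 3.23, Zbtb16 fell by 2.33 and 1.65, and Mt1 rose by 0.77 and 0.57. A miss of the threshold does not show that the cells respond alike.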

How the data were processed

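Cells sorted by tdTOMATO were sequenced from transcript 3′ ends. The authors deposited 1 table of UMI counts per genotype, not normalized (23344 gene symbols in both tables, 26041 in all). Their notes name bcl2fastq 2.18.0.12, Picard 2.9.3, STAR 2.5.4a and the build GRCm38, and the deposited well list paired barcodes with wells. Cells were assigned to libraries by the ending of their names, matched to the sample titles, and to genotypes by table.

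The study tested single cells as replicates. Here UMIs were summed per library (3 Plzf +/+, 2 Plzf lu/lu) and compared with edgeR 4.0.16 in R 4.3.3: filterByExpr, TMM, glmQLFit (robust) and glmQLFTest, with genes called at a Benjamini-Hochberg adjusted p under 0.05. The biological coefficient of variation was 0.124, with 3 residual degrees of freedom and an infinite estimated prior, so genes shared a trended spread. DESeq2 1.42.0 was an alternative. The interaction used 10 sums with a term per library. An exact permutation test of 3 against 2 libraries cannot go below 0.1 and was not run. Procedures were tested on simulated data. For shares at equal depth, cells were thinned to 3000 UMIs. CPM used TMM library sizes, and doublets were not called.

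The rule for naming genes took Zbtb16, the 15 genes with the largest called change in each direction whose genotypes do not overlap, called members and the 3 most abundant of each list, all identity genes and genes called in the interaction. The members and lists were chosen with earlier results of these data known. Alternatives changed the normalization, filter, depth limit, exclusions, robust option, tool and libraries. Another left out plate 4 Plzf +/+ cells outside their labelled wells. No Gfra1-negative cell lay there, so for the genotype calls it repeated the main fit, though it is counted among the alternatives. Chromosome and start come from RefSeq (GRCm38.p6) by symbol. One result of the gene lists is not reported here.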

Additional observations from a re-analysis of the deposited data

Results flagged for a closer look

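Sdc4 stood out because the test of the difference itself found its genotype difference unequal in the 2 kinds of cells. The log2 fold change was 0.10 in Gfra1-negative and 1.13 in Gfra1-positive cells, and the difference between them was -1.002 (edgeR interaction, adjusted p = 0.0016). It was called in 11 of 17 alternatives. It was not called in DESeq2 (adjusted p = 0.992), after thinning (0.455), with the spermatid and Clu exclusions dropped (0.219), without either Plzf lu/lu library (0.151 without plate 3, 0.309 without plate 4) and without cells that held a Kit or Stra8 UMI (0.0946). In each of the 17 alternatives the difference kept its direction, between -1.50 and -0.81.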

How the results depend on the processing

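Against 217 genes higher and 164 lower, DESeq2 called 8 and 7, no filter on low counts 109 and 64, cells thinned to 3000 UMIs 77 and 69, cells of at least 5000 UMIs 93 and 84, no spermatid and Clu exclusions 55 and 21, and cells without Sertoli marker UMIs 83 and 82. Without cells that held a Kit or Stra8 UMI 139 rose. The other alternatives stayed within 1.5 times of both counts. Leaving out 1 library gave 11 to 247 higher and 8 to 174 lower, the lowest with the plate 3 Plzf lu/lu library left out. The interaction called 1 gene, against 3 with RLE normalization, without the filter and without pachytene cells, 4 at 5000 UMIs, 7 at 2000 UMIs, 2 without robust estimation, 5 without Sertoli marker cells, 0 to 4 with 1 library left out, and 0 in DESeq2, after thinning and without Kit or Stra8 cells. The cause was not tested. Leaving out cells with pachytene, Sertoli marker, Kit or Stra8 UMIs and removing the span trend were chosen after seeing the data.

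Of 70 named genes called, 60 had a value without the plate 3 Plzf lu/lu library, where 7 were called, 48 lost their call and 5 turned direction. With 1 library left out the log2 fold change ran from -0.97 to 0.92 for Eif4ebp1, -0.081 to 0.70 for Gstm5, -0.15 to 1.23 for Dlk1, -0.28 to 2.51 for the satellite-like Gm10722 and -0.17 to 0.99 for Egr4. On plate 4 alone, with no test, Eif4ebp1 was at -0.56, Gstm5 at -0.21 and Gm10722 at -0.38. No paired analysis was possible because only plate 4 holds both genotypes, and a plate term leaves 0 residual degrees of freedom. Leaving out cells with at least 3 meiotic prophase UMIs was not run, since 4 of the 330 cells had fewer. The 9 cells of the plate 4 Plzf lu/lu library limit every value that needs both mutant libraries.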
